A study of Mus musculus with 15 samples.

Results

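The basement membrane genes examined here were 34 genes fixed as a list: 4 network collagens (Col4a1, Col4a2, Col4a5, Col4a6), the multiplexin collagens Col15a1 and Col18a1, 5 laminin alpha chains (Lama1 to Lama5), 4 laminin beta and gamma chains (Lamb1, Lamb2, Lamc1, Lamc3), the nidogens Nid1 and Nid2, the heparan sulfate proteoglycans Hspg2 and Agrn, 3 SPARC-related proteins (Sparcl1, Smoc1, Smoc2), 5 nephronectin and Fraser proteins (Npnt, Egfl6, Fras1, Frem1, Frem2), Pxdn and Ntn4, and 5 integrins (Itga1, Itga3, Itga6, Itga7, Itgb1). All 34 were found by symbol among the 53337 genes of the table. They were measured by mRNA-seq in dorsal forebrain dissected at embryonic day (E) 18 from C57BL/6J offspring of dams that received arginine vasopressin (AVP), a peptide hormone used here to model preeclampsia, or saline through a subcutaneous minipump during gestation. There were 4 AVP male, 4 saline male, 3 AVP female and 4 saline female libraries, each from 1 brain, and all groups shared the strain, the age and the pump. The brains came from 8 litters, and the paper states that the libraries of a group were from independent litters. The labels do not tie a library to a litter, so p-values measure the spread between these libraries. The fits over both sexes and of the interaction of treatment and sex treat all libraries as independent. They thus ignore any siblings of opposite sex. A further AVP female, excluded by the authors for high variance, was not analysed here.

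A basement membrane is a thin sheet of extracellular matrix. Laminin trimers of an alpha, a beta and a gamma chain assemble on the cell surface, where integrins and dystroglycan hold them. Collagen IV forms a second network, and nidogens and perlecan (the product of Hspg2) bridge the networks. In the embryonic cortex such sheets lie under the meninges, where the endfeet of radial glia attach, and around blood vessels, between endothelium and mural cells. Genes of these sheets are thus made by several cell types of a forebrain dissection. In bulk tissue, fewer cells of a type and less RNA per cell cannot be told apart.

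Levels are TPM, a transcript's share of all transcripts in its library after division by its length, so they can be compared between genes. TPM hold no read counts, so the depth behind a value is unknown. Xist stood at 266 TPM in the library labelled saline male 3, inside the 174 to 294.5 TPM of the females, and its 4 Y-linked genes summed to 0.489 TPM, against 102 to 155 TPM in the other 7 males. It was analysed under its label, and values without it are also given for the male and interaction differences of those of the 34 genes with an unadjusted p under 0.05. The female comparisons were not refitted with it among the saline females. The cortical neuron genes Tbr1, Neurod6 and Neurod2 were high in all groups, with Tbr1 at 86.0 to 119.5 TPM over all libraries. Of the markers of other cells, the choroid plexus list differed most between dissections, from a sum of 3.33 TPM in a saline male to 2259 TPM in an AVP female.

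The collagen IV genes lie in head-to-head pairs, which is why these 4 promoter windows are shown. Of the 34 genes, 22 matched a RefSeq promoter window of the GRCm38.p6 build, with 27 windows in all, each from 250 bases before to 50 bases after a start. Col4a1 and Col4a2, whose chains form one trimer, lie head to head on chromosome 8, and their starts at 11312826 and 11312805 overlap by 22 bases. Their windows are chr8:11312777-11313076 on the minus strand and chr8:11312555-11312854 on the plus strand, and share 78 bases. Col4a6 and Col4a5 lie head to head on chromosome X, with starts 1343 bases apart and no base shared between their windows. Their windows are chrX:141474027-141474326 on the minus strand and chrX:141475169-141475468 on the plus strand. Capitals mark a CCAAT box (CCAAT or ATTGG) and a GC box (GGGCGG or CCGCCC), searched on both strands.
Col4a1: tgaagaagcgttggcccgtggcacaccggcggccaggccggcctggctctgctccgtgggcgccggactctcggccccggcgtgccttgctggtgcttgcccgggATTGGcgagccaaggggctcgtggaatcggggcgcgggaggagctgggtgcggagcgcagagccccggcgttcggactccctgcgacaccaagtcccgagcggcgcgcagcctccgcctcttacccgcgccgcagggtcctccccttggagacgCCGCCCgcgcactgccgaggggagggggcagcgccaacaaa
Col4a2: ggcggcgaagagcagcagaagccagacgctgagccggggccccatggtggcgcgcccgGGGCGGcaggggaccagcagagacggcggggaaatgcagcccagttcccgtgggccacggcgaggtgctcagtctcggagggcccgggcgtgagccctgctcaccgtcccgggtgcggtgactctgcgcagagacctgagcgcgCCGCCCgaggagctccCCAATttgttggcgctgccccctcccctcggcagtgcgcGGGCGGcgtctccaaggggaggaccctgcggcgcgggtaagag
Col4a6: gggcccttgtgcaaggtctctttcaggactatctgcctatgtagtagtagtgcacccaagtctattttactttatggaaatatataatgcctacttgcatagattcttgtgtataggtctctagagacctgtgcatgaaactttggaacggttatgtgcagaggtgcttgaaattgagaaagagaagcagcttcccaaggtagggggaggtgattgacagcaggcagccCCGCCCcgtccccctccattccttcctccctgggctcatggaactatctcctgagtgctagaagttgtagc
Col4a5: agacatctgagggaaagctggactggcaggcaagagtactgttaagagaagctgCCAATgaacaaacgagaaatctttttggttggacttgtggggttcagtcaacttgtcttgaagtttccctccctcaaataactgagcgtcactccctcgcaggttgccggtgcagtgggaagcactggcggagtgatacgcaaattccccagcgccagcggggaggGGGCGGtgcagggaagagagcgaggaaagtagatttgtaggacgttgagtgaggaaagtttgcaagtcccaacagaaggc
The letters of 1 GC box, chr8:11312812-11312817, stood in the windows of both Col4a1 and Col4a2. The CCAAT letters began 145 bases before the start of Col4a1, 32 bases before that of Col4a2 and 196 bases before that of Col4a5, and the Col4a6 window held none. Over all 32851 mouse promoter windows, 37.41% held a CCAAT box and 35.66% a GC box, and over the 27 windows of these genes 11 and 19 did. A TATA box (TATAAA or TTTATA) was in 13.62% of all windows and in 0 of the 27. A match of letters is a description and not a shown binding site.

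The levels of the 34 genes spanned from under 1 to over 200 TPM. By the mean of 15 libraries, 8 genes were above 20 TPM, 13 were at 5 to 20 TPM, 12 were at 1 to 5 TPM, and Lama3 was at 0.424 TPM. The highest was Sparcl1, a secreted matricellular protein of glia and vessels, at 190 ± 24.2 TPM (SD, n = 15). Agrn (agrin, a heparan sulfate proteoglycan that binds laminin) followed at 155 ± 27.5 TPM. With protein-coding transcripts alone Agrn was at 63.7 TPM. Together these 2 genes held 40.8 to 51.8% of the summed TPM of the 34. The next 6 were Itgb1 at 62.5 ± 7.93, Col4a1 at 61.1 ± 13.4, Pxdn at 49.2 ± 13.5, Col4a2 at 35.6 ± 6.52, Itga6 at 22.8 ± 3.26 and Lamb1 at 22.1 ± 4.77 TPM. In this order Itgb1 and Col4a1 did not differ beyond their spread, nor did Itga6 and Lamb1. The order is that of sums over all transcripts. With protein-coding transcripts alone Pxdn was at 18.6 TPM, below Col4a2 (35.3) and Lamb1 (19.04), and Itga6 at 7.32 TPM, outside the first 8. The summed level of all 34 was 648 to 770.0 TPM in AVP males, 694 to 892 in saline males, 743 to 940.4 in AVP females and 666 to 775 in saline females, with overlap between all groups.

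**Figure D1:**
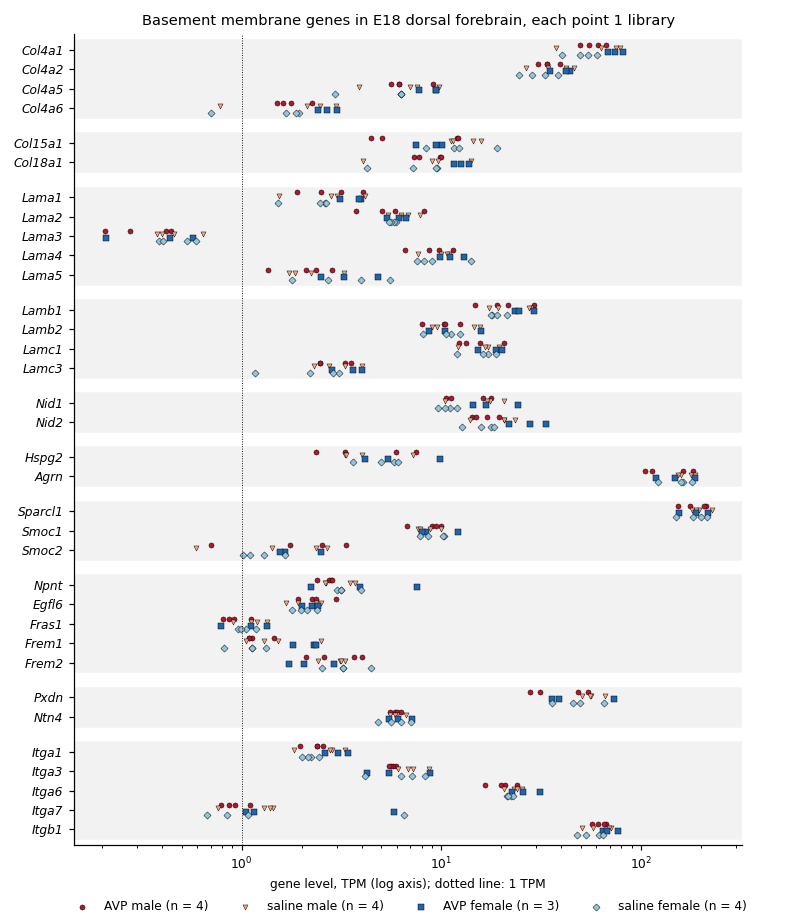
Level of each of the 34 genes in each of the 15 libraries, in TPM on a log axis, by functional class from top to bottom. For Nid2, 2 of the 3 AVP females (squares) are above all other libraries, Itga7 has 2 libraries near 6 TPM, and Lama3 is under 1 TPM throughout.

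Several genes varied more between libraries of 1 group than genes of like level. The median within-group SD on the log2(TPM + 0.5) scale was 0.297 over the 33 tested genes and 0.212 over the 15078 genes tested over all libraries. Of the 33, 24 had a larger SD than the median of the genes within 0.5 log2 units of their level. Itga7 was the most variable at 0.812, followed by Smoc2 at 0.554 and Hspg2 at 0.526, and Ntn4 was the least variable at 0.151.

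The question of the study was whether maternal AVP altered gene expression in the E18 dorsal forebrain of males and of females. Within each sex, AVP and saline were compared by limma on log2(TPM + 0.5) across all genes that reached 1 TPM in 50% or more of the libraries compared, two-sided, with Benjamini-Hochberg adjustment and a threshold of 0.05. Of the 34 genes 33 were tested, since Lama3 did not pass the filter. None of the 33 passed the threshold in either sex, over both sexes or in the interaction of treatment and sex. The z test after Sleuth's scheme also called 0 of them in each comparison.

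In females the differences leaned one way. Of the 33 genes, 11 had an unadjusted p under 0.05 with a higher level after AVP, where 2.34% of all 15132 genes did. These were all 4 collagen IV genes, Col18a1, Lama1, Lamb1, Nid1, Nid2, Frem1 and Itgb1. With a lower level 0 of the 33 did, against 2.17% of all genes. The genes were listed with earlier results of these data known, so the excess is not independent evidence. The AVP and saline females, as labelled, did not overlap, with AVP higher, in 11 of the 33, against 2.78% of all genes. With AVP lower they did not overlap in 0, against 2.77%. Saline male 3, with the sex-linked levels of a female, was above the lowest AVP female for Col4a1, Col4a6, Lamb1, Nid1, Itga1 and Itgb1. For these genes the separation thus depended on its label. The median log2 fold change of the 33 was 0.25, against −0.05 over all genes, and 28 of the 33 were above 0, against 36.9% of all genes. No gene of the table passed the adjusted threshold in females (0% of genes). Leaving out AVP female 1 left 6 of the 33 with an unadjusted p under 0.05 and a higher level, and leaving out AVP female 2 left 7. Without any other female library there were 8 to 11. Over all genes the same count was 387 of 15413 without AVP female 1 and 291 of 15308 without AVP female 2. It was 276 to 371 without any other female library.

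In males no such lean was seen. With an unadjusted p under 0.05, 0 of the 33 were higher after AVP, against 1.11% of all 15271 genes, and 3 were lower (Col15a1, Itga3 and Pxdn), against 12.4%. Male groups did not overlap, with AVP higher, in 0 of the 33, against 0.733% of genes, and with AVP lower in 1 (Itga3), against 6.54%. The adjusted threshold was passed by 0.00655% of genes, and by none of the 33. The median log2 fold change was −0.10 for the 33 and also −0.10 for all genes, so relative to the shift of all genes it was 0.00. Leaving out 1 library moved this between −0.14 (without saline male 1, with 2 of 32 genes above 0) and 0.07 (without saline male 2, with 15 of 31). Without AVP male 2, 1 of 32 was above 0. Of all genes 25.8%, 29.4% and 23.5% were above 0 in these fits, in the same order. Under quantile normalization 18 of the 33 were above 0 in males and under median-of-ratios scaling 16 were, in place of 8, so the sign of small male differences depended on the scaling. Of all genes 54.8% and 50.6% were above 0 under these scalings, in place of 26.4%. Over all genes the male calls at an unadjusted p under 0.05 were 169 higher and 1888 lower, and 761 and 770 under quantile normalization and 1000 and 763 under median-of-ratios scaling. Without saline male 3, 0 of 31 tested genes had an unadjusted p under 0.05. The same count was 0 without AVP male 2 and 1 without AVP male 1. Over all genes 156 were higher and 1069 lower of 15051 without saline male 3. These were 104 and 1593 of 15107 without AVP male 2, and 185 and 1048 of 15169 without AVP male 1.

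**Figure D2:**
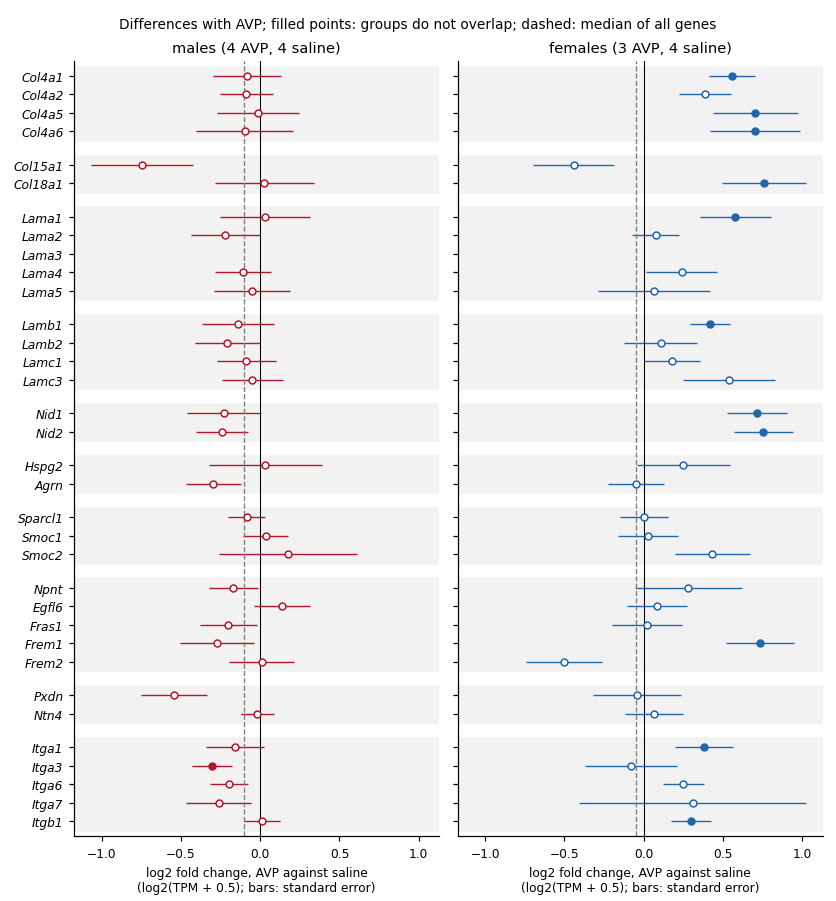
Log2 fold change of each gene with its standard error, AVP against saline, in males (left) and females (right). In females the 4 collagen IV genes, Col18a1, Lama1, both nidogens and Frem1 lie above the median of all genes (dashed line, −0.05), and in males most genes lie near it (−0.10).

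Collagen IV chains make the covalent network of the sheet. In females all 4 genes had higher means after AVP. Col4a1 was at 81.4, 74.2 and 68.7 TPM in the AVP females and 60.1, 54.5, 49.7 and 40.2 TPM in the saline females, so the groups as labelled did not overlap. Saline male 3, with the sex-linked levels of a female, had 75.1 TPM, above the AVP females at 74.2 and 68.7 TPM. In males Col4a1 was at 49.7, 66.9, 55.1 and 61 TPM with AVP and 37.6, 78.7, 75.1 and 63.3 TPM with saline, where saline male 1 was the lowest of all 15 libraries and saline male 2 the highest male. The log2 fold change of Col4a1 was 0.56 ± 0.14 (SE) in females (unadjusted p = 0.00424, adjusted p = 0.999, limma) and −0.08 ± 0.22 in males (adjusted p = 0.889). Col4a2, the partner chain, followed with 0.39 ± 0.17 in females (adjusted p = 0.999), and its groups overlapped, since saline female 1 had 38.5 TPM and AVP female 3 had 35.2 TPM.

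Col4a5 and Col4a6 encode chains of a second kind of collagen IV network and were less abundant. Col4a5 was at 9.41, 9.46 and 7.74 TPM in AVP females and 6.29, 6.26, 6.32 and 2.94 TPM in saline females. The last of these, saline female 4, was the lowest of all libraries for Col4a5 and Col4a6. The log2 fold changes in females were 0.70 ± 0.27 for Col4a5 and 0.70 ± 0.29 for Col4a6 (both adjusted p = 0.999), and without saline female 4 they were 0.46 and 0.46. In males those of the 4 collagen IV genes were between −0.10 and −0.01. The within-run differences had the same sign as the pooled one in females. Among the libraries numbered S1 to S8, with 1 AVP female, the female difference of Col4a1 was 0.50, and among those numbered S13 to S20, with 2, it was 0.67.

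The ratio between chains varied less than the chains themselves in most pairs examined. The ratio of Col4a1 to Col4a2 was between 1.42 and 1.95 in the 15 libraries, and the SD of its log2 within groups was 0.105, where the log2 levels had SDs of 0.306 and 0.262. The ratio of Col4a5 to Col4a6 was between 3.04 and 4.97, with an SD of 0.200 against 0.450 and 0.601. The ratio of Lamb1 to Lamc1, chains of 1 trimer, had an SD of 0.206 against 0.301 and 0.288. That of Col4a1 to Col4a5, which belong to different networks, had 0.221, so a small SD was not limited to chains of 1 trimer. By contrast, the ratio of Lama4 to Lama1, which are alternative alpha chains, ran from 2.51 to 9.35 with an SD of 0.499. The highest of these was saline female 4, with 14.2 TPM of Lama4, its highest level, and 1.52 TPM of Lama1, its lowest.

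The multiplexin collagens, which carry an endostatin domain at their end, differed from each other. Col18a1 was at 13.7, 11.7 and 12.6 TPM in AVP females and 9.49, 9.44, 7.21 and 4.26 TPM in saline females, with no overlap. Col15a1 was at 10.1, 7.47 and 9.45 and 11.6, 12.3, 8.37 and 19.02 TPM in the same groups, which overlapped. Saline female 4 was the lowest female for Col18a1 and the highest of all libraries for Col15a1.
In males Col15a1 was at 5.08, 4.47, 12.03 and 12.1 TPM with AVP and 11.2, 11.5, 15.9 and 14.5 TPM with saline. AVP males 1 and 2 were the lowest of the series, and AVP males 3 and 4 lay among the saline males. The log2 fold change of Col15a1 was −0.74 ± 0.32 in males (adjusted p = 0.364) and −0.44 ± 0.26 in females (adjusted p = 0.999). Without saline male 3 the male value was −0.66 (adjusted p = 0.627, limma). Over both sexes it was −0.60 ± 0.22 (unadjusted p = 0.015, adjusted p = 0.462, limma), and −0.55 without saline male 3 (adjusted p = 0.659; over all alternatives 0.166 to 0.777). Col15a1 was the 1 gene of the 33 with a lower level over both sexes at an unadjusted p under 0.05, where 9.69% of 15078 genes were; 0 of the 33 were higher, against 0.683%. Over all genes these were 103 higher and 1461 lower, and 612 and 594 under quantile normalization and 439 and 675 under median-of-ratios scaling. No gene passed the adjusted threshold over both sexes (0%). The male libraries numbered S1 to S8 differed by −1.17 and those numbered S13 to S20 by −0.32. The difference of Col18a1 was 0.76 ± 0.26 in females (adjusted p = 0.999) and 0.03 ± 0.31 in males.

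Laminins are the chains that start a basement membrane. Among the alpha chains Lama4 (9.92 ± 2.07 TPM), a chain of vessels and meninges, was the most abundant over the 15 libraries, then Lama2 (6.02 ± 1.08). Lama1 (2.89 ± 0.858) and Lama5 (2.82 ± 1.19) followed and did not differ beyond their spread. These are sums over all transcripts. With protein-coding transcripts alone Lama5 was at 1.06 TPM and Lama1 at 2.89 TPM, and the 9614 nt coding transcript of Lama2 was at 1.16 TPM. Lama3, a chain of epithelia, was between 0.206 and 0.641 TPM. Lama1, the alpha chain of the pial sheet, was at 3.95, 3.102 and 3.896 TPM in AVP females and 2.62, 2.63, 2.48 and 1.52 TPM in saline females. These groups did not overlap, with a log2 fold change of 0.58 ± 0.22 (adjusted p = 0.999), and 0.43 without saline female 4. In males it was 0.03 ± 0.28. The other tested alpha chains had female differences between 0.06 and 0.24 and male ones between −0.22 and −0.05.

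Of the beta and gamma chains, Lamb1 and Lamc1, the common partners of the alpha chains, were at 22.1 ± 4.77 and 16.4 ± 2.96 TPM. Lamb1 was at 23.6, 29.2 and 24.6 TPM in AVP females and 18.1, 19.1, 17.8 and 21.5 TPM in saline females. The groups as labelled did not overlap, with a log2 fold change of 0.42 ± 0.13 (adjusted p = 0.999, limma). In males, where AVP male 4 was the highest of the series and AVP male 1 the lowest, it was −0.14 ± 0.23. Lamc1 had 0.18 ± 0.18 in females, Lamb2 0.11 ± 0.23 and Lamc3 0.54 ± 0.29, and the groups of these 3 overlapped. In males all 4 chains were between −0.21 and −0.05.

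Nidogens link the laminin and collagen IV networks. Nid2 had the smallest unadjusted p of the 33 in females and in the interaction. Nid2 was at 21.8, 27.99 and 33.5 TPM in AVP females and 17.9, 15.9, 12.7 and 18.4 TPM in saline females. Each AVP female was above each saline female. In males the order was the other way, at 14.2, 17.1, 14.9 and 19.4 TPM with AVP and 14, 23.3, 20.7 and 20.7 TPM with saline, with overlap. The log2 fold change of Nid2 was 0.75 ± 0.18 in females (unadjusted p = 0.00316, adjusted p = 0.999, limma) and −0.24 ± 0.16 in males (adjusted p = 0.525), and the interaction was 0.99 ± 0.26 (unadjusted p = 0.00166, adjusted p = 0.896).
Nid1 was at 16.8, 24.2 and 14.4 TPM in AVP females, 12.04, 9.66, 11.1 and 10.4 TPM in saline females, 10.6, 17.7, 11.2 and 16.2 TPM in AVP males and 10.5, 20.8, 17.7 and 17.03 TPM in saline males. The female groups as labelled did not overlap and the male groups did. Saline male 3, with the sex-linked levels of a female, had 17.7 TPM, above the AVP females at 16.8 and 14.4 TPM. Nid1 had 0.71 ± 0.19 in females (adjusted p = 0.999), −0.23 ± 0.23 in males and an interaction of 0.94 ± 0.32 (adjusted p = 0.896). The study placed Nid1 on its list of genes that differed in females, chosen on these libraries, so its direction is not independent evidence. Without saline male 3 the interactions were 0.96 for Nid2 and 0.90 for Nid1 (both adjusted p = 0.974; over all alternatives 0.452 to 0.998 and 0.610 to 0.998).

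The heparan sulfate proteoglycans had small differences in both sexes. Hspg2 was at 2.37 to 9.84 TPM over the series, with 0.25 ± 0.30 in females and 0.03 ± 0.35 in males. Agrn had −0.05 ± 0.17 in females and −0.30 ± 0.17 in males (adjusted p = 0.462), where AVP males 1 and 2 had 115 and 105 TPM and the other 6 males 155 to 186 TPM. Of the SPARC-related genes, Sparcl1 and Smoc1 had log2 fold changes between −0.08 and 0.03 in the 2 sexes. Smoc2, a matricellular protein of mesenchyme, had 0.43 ± 0.24 in females and 0.18 ± 0.43 in males, and varied 5.64-fold over the libraries.

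Fras1, Frem1 and Frem2 encode large proteins that anchor embryonic epithelia, and Npnt and Egfl6 encode integrin ligands. Frem1 was at 2.301, 2.36 and 1.81 TPM in AVP females and 1.33, 1.12, 1.13 and 0.814 TPM in saline females, with no overlap. Its log2 fold change was 0.74 ± 0.21 in females (adjusted p = 0.999) and −0.27 ± 0.23 in males, and the interaction was 1.01 ± 0.30 (unadjusted p = 0.00447, adjusted p = 0.896, limma). Saline male 2 had the highest level of Frem1, 2.51 TPM. Frem2 leaned the other way in females, at 2.9, 2.05 and 1.73 TPM with AVP and 3.23, 3.21, 2.54 and 4.45 TPM with saline, with overlap and a log2 fold change of −0.50 ± 0.24 (unadjusted p = 0.0673). Npnt, Egfl6 and Fras1 were between 0.02 and 0.28 in females and between −0.20 and 0.14 in males. AVP female 2 stood apart for Npnt, with 7.601 TPM against 2.23 to 3.96 TPM in the other libraries.

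Pxdn (peroxidasin), the enzyme that cross-links collagen IV with sulfilimine bonds, was at 31.3, 27.9, 48.5 and 54.5 TPM in AVP males and 56.4, 55.9, 66.2 and 51.04 TPM in saline males. AVP males 1 and 2 were the lowest of the series, and AVP male 4 lay among the saline males. Its log2 fold change was −0.54 ± 0.21 in males (unadjusted p = 0.0272, adjusted p = 0.326, limma), −0.47 without saline male 3 (adjusted p = 0.614; over all alternatives 0.149 to 0.627), and −0.04 ± 0.28 in females. The male libraries numbered S1 to S8 differed by −0.91 and those numbered S13 to S20 by −0.18. Ntn4, a netrin that binds laminin, was the steadiest of the 34, with the highest library 1.48-fold above the lowest.

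Integrins are the receptors of these sheets, and Itgb1 encodes a beta chain that pairs with each alpha chain examined here. Itgb1 was at 64.7, 77.1 and 67.6 TPM in AVP females and 53.4, 61.8, 64.4 and 47.95 TPM in saline females. The lowest AVP female was only just above the highest saline female as labelled. Its log2 fold change was 0.30 ± 0.13 in females (adjusted p = 0.999) and 0.01 ± 0.11 in males. Itga1, the collagen receptor chain, did not overlap in females as labelled either (3.05, 3.43 and 2.61 against 2.44, 2.22, 2.16 and 2.004 TPM). Its log2 fold change in females was 0.38 ± 0.18 (unadjusted p = 0.0705, limma).
Itga3 and Itga6 encode the alpha chains of laminin receptors on radial glia and other cells. Itga3 was at 5.95, 5.76, 5.62 and 5.496 TPM in AVP males and 7.22, 6.79, 8.74 and 6.11 TPM in saline males, with no overlap. The highest saline male was saline male 3, and without it the log2 fold change moved from −0.30 ± 0.12 (adjusted p = 0.339, limma) to −0.21 (adjusted p = 0.628; over all alternatives 0.299 to 0.678). Under median-of-ratios scaling and quantile normalization the male difference of Itga3 was between −0.20 and −0.15. In females Itga3 was −0.08 ± 0.29. Itga6 had 0.25 ± 0.13 in females, −0.20 ± 0.12 in males and an interaction of 0.45 ± 0.17 (unadjusted p = 0.022, adjusted p = 0.896). Itga7 was at 5.83 TPM in AVP female 2 and 6.55 TPM in saline female 4, and at 0.671 to 1.44 TPM in the other 13 libraries.

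The interaction asks whether the difference with AVP was larger in females than in males. It was above 0 in 30 of the 33 genes, against 61.2% of all genes, with a median of 0.35 against 0.07 over all genes. With an unadjusted p under 0.05, 6 of the 33 had a higher interaction (Col4a1, Frem1, Itga1, Itga6, Nid1 and Nid2), against 2.52% of 15078 genes, and 0 a lower one, against 1.62%. Over all genes these were 380 and 244, and 255 and 458 under quantile normalization and 308 and 560 under median-of-ratios scaling, where 4 and 5 of the 33 had a higher interaction. The interaction was 0.64 ± 0.29 for Col4a1 and 0.54 ± 0.24 for Itga1 (both adjusted p = 0.896). No gene of the table passed the adjusted threshold (0%), so a difference between the sexes was not shown for any of them. Leaving out saline male 1 raised the 6 to 13, leaving out AVP female 2 left 3, and leaving out saline male 3 left 4. Over all genes the 380 became 602 of 15177, 195 of 15151 and 234 of 15164 in these fits. Without saline male 3 the interaction was 0.54 for Col4a1, 1.06 for Frem1, 0.51 for Itga1 and 0.43 for Itga6 (all adjusted p = 0.974, limma).

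Of 50 partner genes outside the 34, 44 were tested and 0 passed the adjusted threshold in any comparison. The partners were chosen with earlier results of these data known. In females 4 of the 44 (9.09%, against 2.34% of all genes) had an unadjusted p under 0.05 and a higher level, among them Serpinh1, the collagen chaperone, and Sparc, a collagen IV binding protein. Serpinh1 was at 86.1, 95.8 and 86.5 TPM in AVP females and 65.97, 67.9, 61.2 and 55.5 TPM in saline females, without overlap. Its log2 fold change was 0.51 ± 0.10 (unadjusted p = 0.000782, adjusted p = 0.998, limma), and it too is on the study's female list, chosen on these libraries. Sparc had 0.39 ± 0.12, the gelatinase Mmp2 0.65 ± 0.20 and the inhibitor Timp1 0.59 ± 0.23 in females (all adjusted p = 0.999).
In males 11 of the 44 partners (25%, against 12.4% of all genes) had an unadjusted p under 0.05 and a lower level, and 0 a higher one. The 11 became 4 without saline male 3, 6 without AVP male 1, AVP male 2 or saline male 2, 4 under quantile normalization and 3 under median-of-ratios scaling. Over all genes the 1888 lower calls became 1069 without saline male 3, and 1048, 1593 and 1768 without AVP male 1, AVP male 2 and saline male 2. They were 770 under quantile normalization and 763 under median-of-ratios scaling. The 5 with the smallest p were Lims1, an integrin linker (−0.39 ± 0.09), Pomt1 (−0.59 ± 0.18), Pomgnt1 (−0.22 ± 0.08) and Pomt2 (−0.35 ± 0.13), enzymes of the sugar chain on dystroglycan, and Adamts1, a protease (−0.61 ± 0.20), with adjusted p between 0.304 and 0.320 (limma). Without saline male 3 these were −0.34 for Lims1, −0.50 for Pomt1, −0.24 for Pomgnt1, −0.30 for Pomt2 and −0.57 for Adamts1, with adjusted p between 0.612 and 0.614. Over both sexes 6 of the 44 (13.6%, against 9.69%) were lower at an unadjusted p under 0.05. Pomt1 (−0.45 ± 0.16) and Pomgnt1 (−0.19 ± 0.07) came first, with Mmp9, Mmp15 and Colgalt1 among them. The 6 became 13 without AVP female 2, 2 under quantile normalization and 3 under median-of-ratios scaling. Over all genes the lower calls rose from 1461 to 3467 of 15151 without AVP female 2, and fell to 594 and 675 under the 2 scalings. In the interaction 6 of the 44 (13.6%, against 2.52%) were higher, with Adamts1 first (0.90 ± 0.28, adjusted p = 0.896), then Loxl2 (0.63 ± 0.23), Lims1, Sparc and Mmp2. These 6 became 2 without saline male 3, 10 without saline male 1, 3 without saline male 2, AVP female 2 or saline female 4, and 3 under quantile normalization. Over all genes the higher calls went from 380 to 234 without saline male 3 and 602 without saline male 1. They were 267, 195 and 386 without saline male 2, AVP female 2 and saline female 4, and 255 under quantile normalization. The 13 genes of dystroglycan and its glycosylation had medians of −0.14 in males and −0.10 in females, and 1 of the 13 was above 0 in females, against 36.9% of all genes.

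Markers of the tissues that carry basement membranes moved with the female differences. Of the 12 meningeal fibroblast markers, 12 were higher in AVP females and 10 had an unadjusted p under 0.05. Of all genes 36.9% were higher in AVP females, and 2.34% were higher at an unadjusted p under 0.05. Their sum was 378 to 513 TPM in AVP females and 201 to 271 TPM in saline females, without overlap, and 229.6 to 464 and 126 to 485 TPM in AVP and saline males. Among its defining genes, Col1a1 was at 16.8 to 21.4 TPM in AVP females and 9.40 to 13.3 TPM in saline females. The study's female list, chosen on these libraries, holds Col1a1, Col1a2, Dcn and Slc6a13 of this list.
Of the 10 endothelial markers, 8 were higher in AVP females and 4 had an unadjusted p under 0.05, with sums of 237 to 252 TPM against 152 to 228 TPM. The tight junction gene Cldn5 was at 84.7 to 101.0 and 50.5 to 86.8 TPM. Of the 9 mural cell markers tested, 9 were higher and 3 had an unadjusted p under 0.05, with sums of 162 to 176 against 108 to 143 TPM. The mural count was 1 without AVP female 1, saline female 2 or saline female 4, and the endothelial count 2 without AVP female 2. In males 12 of 12 meningeal markers had a log2 fold change above 0, with a median of 0.20, but 0 of 12 did without saline male 1, with a median of −0.21, and 8 of 12 without AVP male 2. In males 1 of 10 endothelial and 1 of 9 mural markers were above 0, against 26.4% of all genes.
Other lists moved as well, where 2.34% of all genes were higher at an unadjusted p under 0.05 in females. All 5 red blood cell markers had an unadjusted p under 0.05 in females, with sums of 5129 to 13660 against 2241 to 5706 TPM, and 4 of 5 border macrophage markers did, with sums of 48.8 to 56.2 against 16.5 to 30.5 TPM. The red blood cell count was 0 of 5 without saline female 1, AVP female 3 or saline female 4, and 3 of 5 without AVP female 1. The border macrophage count was 4 without any 1 library. The study's female list, chosen on these libraries, holds Mrc1 of the border macrophage list. The choroid plexus list ran from 20.6 to 2259 against 4.96 to 948 TPM. Of the 9 radial glia markers 6 were above 0 in females and 1 had an unadjusted p under 0.05 (0 without AVP female 2, AVP female 3, saline female 1 or saline female 4), with sums of 2143 to 3307 against 2378 to 2800 TPM. Microglial sums overlapped (49.9 to 68.9 against 52.05 to 63.98 TPM), as did those of cortical neurons (996 to 1164 against 953 to 1234) and ventral forebrain (82.7 to 134 against 113 to 130.2). No marker was at 0 in every library. The part of these cells in the differences of the basement membrane genes was not tested.

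Across the 15 libraries, each gene was set against the mean log2 level of 4 marker lists, in 132 pairs of 33 genes and 4 lists. Pearson's r and Spearman's rho were given permutation p-values with 100000 resamples, two-sided and adjusted by the Benjamini-Hochberg method over the 132 pairs. Both values of a pair come from the same library and share its total. The adjusted p of r was under 0.05, with a positive r, for 14 genes with the meningeal list, 15 with the endothelial list, 16 with the mural list and 7 with the radial glia list, and for 0 with a negative r. The adjustment covered these pairs only, so no share of all genes stands beside these counts. The median r was 0.54, 0.47, 0.54 and 0.43, where over all 15078 genes it was −0.12, 0.10, −0.03 and 0.28. An r above 0.8 was reached with the endothelial list by 11 of the 33, against 0.95% of all genes, with the mural list by 8, against 1.16%, with the meningeal list by 5, against 1.26%, and with the radial glia list by 0, against 0.47%.
The lists themselves varied together, which limits how far the sources can be separated. The endothelial and mural lists had an r of 0.88 with each other, the meningeal and mural lists 0.85, the meningeal and endothelial lists 0.70, and the radial glia list 0.36 to 0.55 with the other 3.

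The collagen IV genes varied with the vascular and meningeal lists. Col4a1 had an r of 0.935 with the endothelial list (rho 0.943, adjusted permutation p = 0.000264 and 0.00024). It was 0.931 within the libraries numbered S1 to S8, 0.963 within S13 to S20, 0.937 for deviations from the group means, 0.939 in males, 0.933 in females and 0.924 without the 2 libraries farthest from the median of the markers. The relation was thus present within groups and within both runs. With the mural and meningeal lists Col4a1 had 0.932 and 0.834. With coding transcripts only, its r was 0.855 with the endothelial, 0.904 with the mural and 0.895 with the meningeal list, so the order of the lists for Col4a1 depended on the transcripts summed. With the endothelial list Col4a2 had an r of 0.934, Col4a5 0.917 and Col4a6 0.94. Itga1, Col18a1, Itgb1, Lama1, Frem1, Lamc3 and Nid1 followed with 0.908, 0.899, 0.851, 0.848, 0.835, 0.822 and 0.804. These 11 were also the genes with an r above 0.8 for that list.
Lama1 and Lamc3 had a slightly higher r with the mural list, 0.902 and 0.831 (adjusted permutation p = 0.000264 and 0.000377). Of all 33, 10 of the 11 genes with an unadjusted p under 0.05 in females had an adjusted p under 0.05 with each of the meningeal, endothelial and mural lists, and the exception was Lamb1, with an r of 0.54 for the meningeal list (adjusted permutation p = 0.0871).

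**Figure D3:**
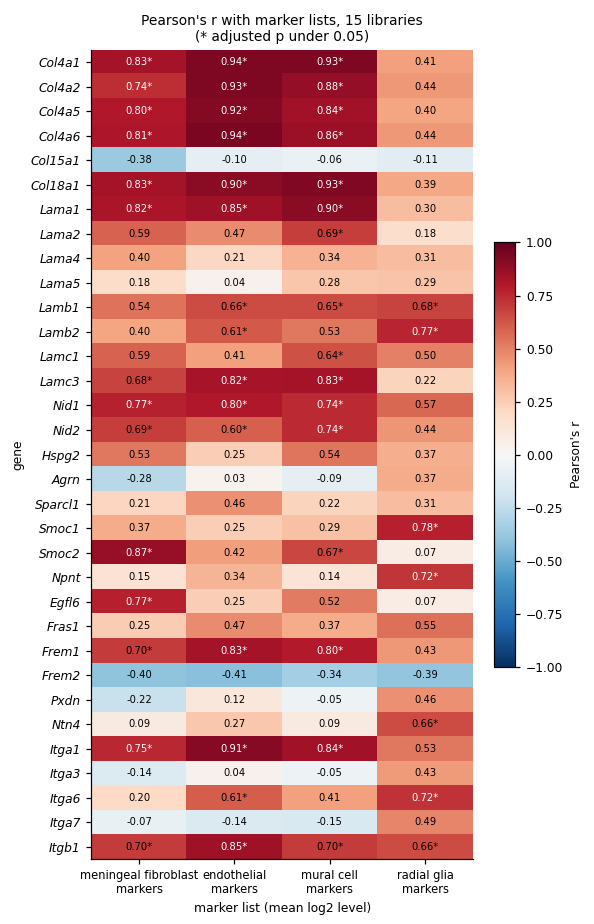
Pearson's r across the 15 libraries between each of the 33 genes (rows, by class) and the mean level of 4 marker lists (columns), where an asterisk marks an adjusted p under 0.05. The 4 collagen IV genes have r between 0.92 and 0.94 with the endothelial list, and Col15a1 and Frem2 are below 0 for all 4 lists.

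Other genes had their highest r with the meningeal or the radial glia list. Smoc2 and Egfl6 had their highest r with the meningeal list, 0.872 and 0.774 (rho 0.818 and 0.754, adjusted permutation p of r = 0.000305 and 0.0035), against 0.421 and 0.249 with the endothelial list. Without the 2 farthest libraries Smoc2 had 0.805.
Of the 33, 12 had their highest r with the radial glia list, and 7 had an adjusted p under 0.05 with it: Smoc1 (0.775), Lamb2 (0.765), Itga6 (0.724), Npnt (0.716), Lamb1 (0.678), Itgb1 (0.655) and Ntn4 (0.655). Over all genes the median r was also highest with this list, at 0.28, against −0.12 to 0.10 with the others. No share of all genes was computed for either count. AVP female 2 had the highest level of the radial glia list. Without the 2 farthest libraries the r of Npnt was 0.143 and that of Itga6 0.385, so these 2 rested on those libraries. That of Itgb1 was 0.419 in place of 0.655, and that of Smoc1 was 0.579.
Col15a1 and Frem2 had a negative r with all 4 lists. Col15a1 was at −0.095 with the endothelial list (adjusted permutation p = 0.806), with 0.366 in males and −0.844 in females. Frem2 was at −0.415 (adjusted permutation p = 0.22), with 0.25 within S1 to S8 and −0.799 within S13 to S20. Agrn and Pxdn, both abundant, had r between −0.28 and 0.12 with the meningeal, endothelial and mural lists.

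**Figure D4:**
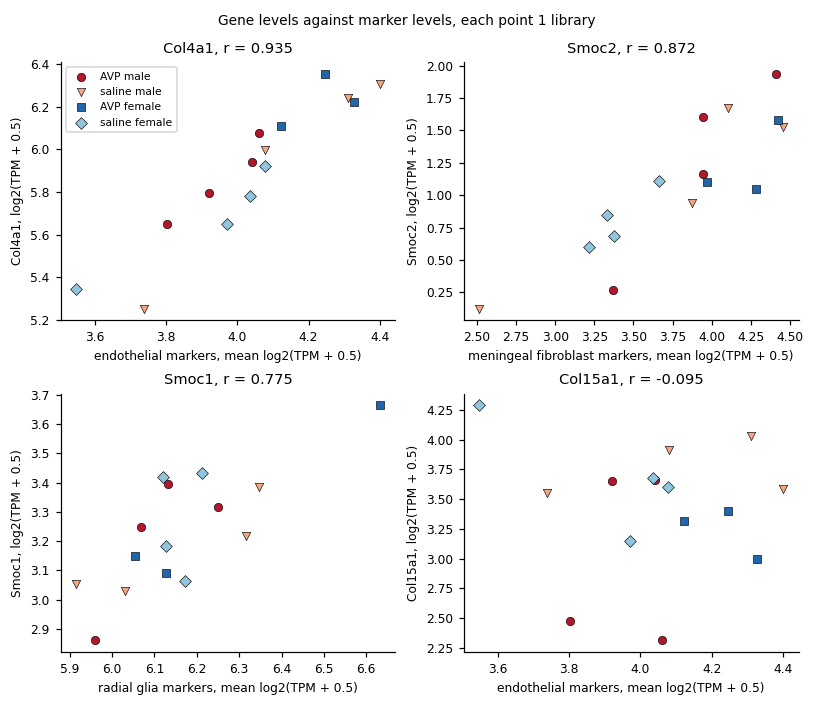
Level of Col4a1, Smoc2, Smoc1 and Col15a1 (log2(TPM + 0.5)) against the mean level of a marker list, 1 point per library, coloured by group. Col4a1 is higher where the endothelial list is higher (r = 0.935), and Col15a1 does not (r = −0.095).

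The level of a gene is a sum over its annotated transcripts, of which the 34 genes had 164. In 19 genes protein-coding transcripts held at least 90% of the gene's TPM on average, and in 5 they held under 50%: Lama5 (43.0%), Hspg2 (46.3%), Agrn (42.0%), Pxdn (38.3%) and Itga6 (32.1%). The largest share of Hspg2, 53.7%, came from an 820 nt processed transcript at chr4:137569171-137570117. Of Itga6, 45.1% came from a processed transcript of 2721 nt and 21.8% from one of 443 nt. A retained-intron transcript of 543 nt, at chr14:19805236-19808105, held 42.9% of Nid2, and 28.2 to 60.0% in single libraries. For Lama2, 78.0% came from a coding transcript of 3383 nt that covers chr10:26981495-27056645, and the longer coding transcript of 9614 nt held 18.98%. A short transcript gets a higher TPM than a long one from the same number of reads, and transcripts under 1000 nt held 57.0% of Lama5, 53.7% of Hspg2, 42.9% of Nid2, 39.7% of Lamb2 and 22.7% of Itga6.
The collagen IV genes rested on long coding transcripts, with 81.7% of Col4a1 in a transcript of 6615 nt and 99.2% of Col4a2 in one of 6450 nt. With protein-coding transcripts only, an alternative added after seeing the data, the female log2 fold changes were 0.63 for Col4a1, 0.40 for Col4a2, 0.79 for Nid2, 0.63 for Nid1, 0.38 for Lamb1 and 0.52 for Frem1. In this fit 12 of 31 tested genes had an unadjusted p under 0.05 (limma) and a higher level, against 385 of all 14785 genes. In males the log2 fold changes with these transcripts were −0.63 for Pxdn and −0.22 for Itga3.

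**Figure D5:**
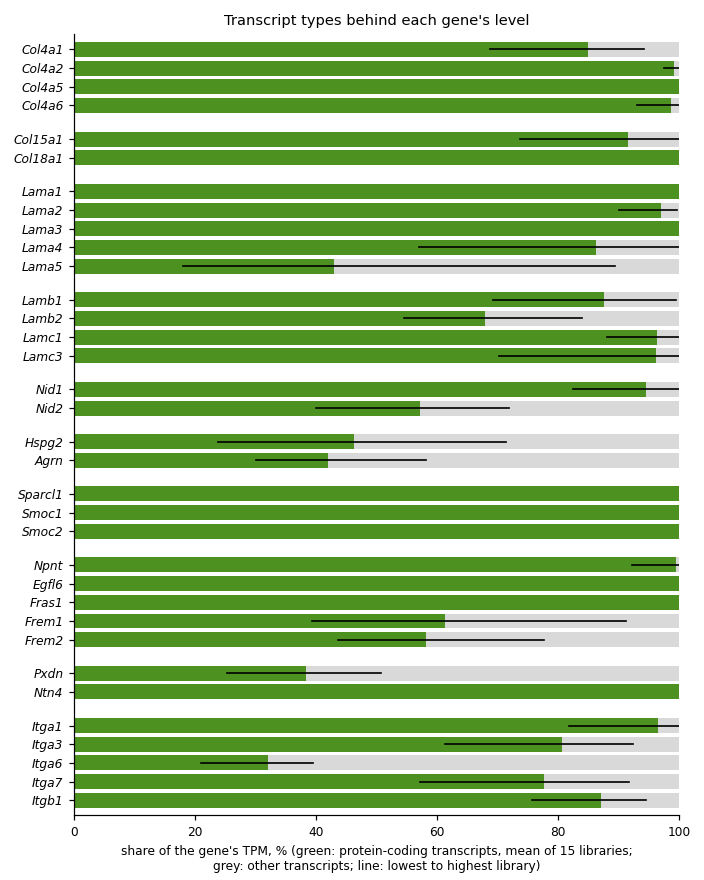
Share of each gene's TPM held by protein-coding transcripts (green, mean of 15 libraries) and by other transcripts (grey), with a line from the lowest to the highest library. Itga6, Pxdn, Agrn, Lama5 and Hspg2 are under 50% coding, and Col4a2, Col4a5, Col4a6 and Col18a1 are above 98%.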

How the data were processed

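The authors trimmed the reads with Trim Galore 0.4.1, checked them with FastQC and quantified them with kallisto 0.43.1 against GENCODE M16 (GRCm38). The deposited values are taken as TPM per transcript (each library sums to the same total), so they hold no counts and the depth is unknown. The authors' Sleuth tests were not used. Transcripts were summed to 53337 genes with GENCODE M21. The 404 transcripts without a gene there held 0.154 to 0.199% of a library. Genes that reached 1 TPM in 50% or more of the libraries compared were fitted by limma 3.58.1 (R 4.3.3) on log2(TPM + 0.5), a step tested on simulated data. Fold changes on this scale understate the change of low genes. The genes, partner lists and marker lists were chosen with earlier results of these data known. Fold changes are given for genes with an unadjusted p under 0.05, and up to 5 partners per comparison. Other genes given with a fold change were chosen after their values were seen. Alternatives were other pseudocounts, filters, scalings, test settings, coding transcripts, runs of library numbers and leaving out each library.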

Additional observations from a re-analysis of the deposited data

Results flagged for a closer look

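In 7 of 132 groups of 4 libraries examined, 1 value stood apart from the other 3 by Dixon's ratio, where about 1 in 20, or 6.6, would by chance. Saline female 4 held 5 of the 7. It was the lowest saline female for Col4a5 (2.94 TPM) and Lama1 (1.52 TPM), and the highest for Npnt (3.96 TPM) and Itga7 (6.55 TPM). Its border macrophage markers were the lowest of its group, at a mean log2(TPM + 0.5) of 1.41. In AVP males, AVP male 2 was the highest for Frem1 (1.46 TPM), and AVP male 1 was the highest for the choroid plexus markers (mean log2 of 2.76).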

How the results depend on the processing

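No paired analysis was possible because the labels give no replicate numbers that link libraries of different groups. The genes with an unadjusted p under 0.05 in a comparison kept their direction in all 424 alternatives in which they passed the filter. They were chosen by that p on the same libraries, which the alternatives largely share. A change of direction was thus unlikely from the outset, and the count is no independent evidence. None of the 424 passed the adjusted threshold, which few genes of the table do. Other genes were not followed singly, and the number of the 33 above 0 in males ran from 1 to 15 leaving out a library, against 22.9 to 32.9% of all genes. In males 1 gene of the table passed the threshold. The number was 0 with a pseudocount of 1, with a mean of at least 5 TPM, with the run of library numbers as a covariate and with 1 fit of all 15 libraries, 2 without limma's trend, 109 with a z test built after Sleuth, and 0 to 6 leaving out a library. In females 0 became 17 with the z test and 0 to 6 leaving out a library. Over both sexes 0 became 2 and 0 to 1, and in the interaction 1 and 0 to 1. The difference between the female median of the 33 genes and that of all genes, 0.30, was 0.19 to 0.35 leaving out a library, with 0.19 without saline female 3. The median r with the meningeal list, 0.54, became 0.67 with coding transcripts only. With the endothelial list 0.47 became 0.79 within S1 to S8 and 0.66 without the 2 farthest libraries. With the mural list 0.54 became 0.79 within S1 to S8 and 0.64 with coding transcripts only. With the radial glia list 0.43 became 0.18 without the 2 farthest libraries. The cause of these changes was not tested. Unknown depth limits the precision of the low genes, and there are 3 AVP females.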
